A study of Homo sapiens with 6 samples.

Results

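NQO1 and NQO2 are the paralogous quinone reductases of the human genome, and their RNA was followed in K562 cells, an erythroleukemia line, with and without knockdown of PCBP1. Both genes were found by symbol in GENCODE release 44, which assigns 16 of the 251612 matched transcripts to them (7 to NQO1 and 9 to NQO2), or 2 of 62252 genes. The cells carried a lentiviral pLKO.1 short hairpin RNA against PCBP1 (shPCBP1) or against luciferase (shCtrl), and both groups were kept under puromycin selection before collection, so virus, vector and selection were common to the controls. Each group held 3 poly-A RNA libraries, with total estimated counts between 67066747 and 140522444. All 3 shPCBP1 libraries stood at 85121124 or below, as did shCtrl replicate 2 (83033656). The labels did not say whether the libraries came from separate cultures, so p-values measure only the spread between these samples. A single hairpin sequence per gene was used, the transduced cells were collected in bulk, and fewer expressing cells cannot be told apart from less RNA per cell.

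Both enzymes are cytosolic flavoproteins that bind FAD and reduce quinones to hydroquinones by transferring electrons as a pair, which avoids the reactive semiquinone. NQO1 takes its electrons from NADH or NADPH, whereas NQO2 uses dihydronicotinamide riboside and works poorly with the usual pyridine nucleotides. NQO1 is a classical target of the transcription factor NRF2 and of the aryl hydrocarbon receptor. PCBP1 binds C-rich RNA, takes part in splicing and carries iron in the cytosol.

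The coding sequences of the pair are cut by introns at like positions. In the canonical transcripts NQO1-201 and NQO2-205, the first 5 coding segments had the same lengths in both genes (7, 165, 131, 114 and 102 bases), and only the last differed (303 bases in NQO1 and 174 in NQO2). Aligned without gaps, the 4 longer equal segments were identical at 52.7% to 57.8% of bases. The 114-base segment, exon 5 of 7 in NQO2 and exon 4 of 6 in NQO1, is skipped in annotated transcripts of both genes, and the 102-base exon 5 of NQO1 is skipped in some as well. These 3 exons are shown because the splicing comparison turns on them. Each is printed 5′ to 3′ on the strand of its gene, from hg38, with the exon in capitals and 50 upstream and 10 downstream intron bases in lower case. The windows are chr6:3015480-3015653 (plus strand), chr16:69714954-69715127 (minus strand) and chr16:69713018-69713179 (minus strand).
NQO2 exon 5: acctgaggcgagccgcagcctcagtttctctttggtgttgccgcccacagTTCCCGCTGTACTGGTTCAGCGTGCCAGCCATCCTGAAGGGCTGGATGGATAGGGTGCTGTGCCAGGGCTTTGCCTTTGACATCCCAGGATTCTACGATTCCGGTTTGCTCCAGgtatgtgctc
NQO1 exon 4: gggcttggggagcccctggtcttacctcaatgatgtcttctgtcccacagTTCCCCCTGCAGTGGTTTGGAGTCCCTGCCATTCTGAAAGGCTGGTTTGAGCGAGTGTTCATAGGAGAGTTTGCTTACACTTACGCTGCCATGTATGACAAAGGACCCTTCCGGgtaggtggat
NQO1 exon 5: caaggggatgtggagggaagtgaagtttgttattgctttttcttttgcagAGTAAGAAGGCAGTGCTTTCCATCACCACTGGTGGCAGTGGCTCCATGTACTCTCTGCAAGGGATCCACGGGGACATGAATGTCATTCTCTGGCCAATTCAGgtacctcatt

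All 3 exons keep the reading frame, with 38, 38 and 34 codons, and their introns end in AG and begin with GT. Because PCBP proteins bind C-rich RNA, the C content of the 50 upstream bases was counted. It was 34% for NQO2 exon 5, higher than in 80.9% of 56410 distinct cassette exons tested, 30% for NQO1 exon 4, higher than in 72.4%, and 8% for NQO1 exon 5, higher than in 3.38%, while the median was 22%. On the strand of the transcript alone, the run CCC or longer occurred 1 time upstream of NQO2 exon 5, 2 times upstream of NQO1 exon 4 and 0 times upstream of NQO1 exon 5, and 45.4% of all such windows held CCC. These counts describe the letters and are not evidence of binding.

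The targeted gene was examined first. The shCtrl libraries held 40566, 38409 and 37799 normalized counts of PCBP1 and the shPCBP1 libraries 6625, 7277 and 7221, which left 18.1% of the control level (log2 fold change -2.47, SE 0.04). All 12 markers of K562 cells, among them the fetal globin HBG2 and the erythroid factor GATA1, were above 1 TPM (a relative level scaled by transcript length). Their summed level was 29072 to 34895 TPM in shCtrl and 33284 to 34715 TPM in shPCBP1. Markers of other cell types passed 1 TPM in any library for 2 of 4 lymphoid, 1 of 3 monocyte and 4 of 5 epithelial genes. So did 0 of 2 hepatocyte and 2 of 3 fibroblast genes. Some of these were well expressed: KRT8 stood at 459 to 510 TPM, KRT18 at 312 to 335 and KRT19 at 144 to 168. PTPRC (35.2 to 43.4 TPM), CD68 (32.1 to 43.4) and EPCAM (26.7 to 38.1) were also present. CD3E, CSF1R, ALB and APOA1 were at or near 0. Across all 17095 genes with an adjusted p, 31.2% passed an adjusted p of 0.05 in the DESeq2 Wald test (17.7% higher and 13.5% lower in shPCBP1), and 1.37% also passed an absolute log2 fold change of 1 with a mean normalized count over 10.

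Neither reductase passed that test. NQO1 (ENSG00000181019, hg38 chr16:69706996-69726668, minus strand) was counted at 5797, 5325 and 5516 after normalization in the controls, and at 5753, 5783 and 5056 after PCBP1 knockdown. The groups overlapped, with shPCBP1 replicates 1 and 2 inside the control range and replicate 3 below it. The means were 5546 ± 238 and 5531 ± 412 (SD, n = 3). The log2 fold change was -0.0039 (SE 0.06, DESeq2 adjusted p = 0.973), with a 95% confidence interval of 0.92 to 1.08 fold.

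NQO2 (ENSG00000124588, hg38 chr6:2987987-3019755, plus strand) was counted at 8861, 8306 and 8147 after normalization in the controls, and at 9304, 8802 and 8825 after knockdown. The highest control library stood above 2 of the shPCBP1 libraries, so these groups overlapped too. The means were 8438 ± 375 and 8977 ± 283 (SD, n = 3), and differed by 0.09 on the log2 scale (SE 0.05, DESeq2 adjusted p = 0.141), with a 95% confidence interval of 0.998 to 1.13 fold. The outcome rested on 1 library: without shCtrl replicate 1, the log2 fold change was 0.13 and the DESeq2 adjusted p was 0.0408. With edgeR's quasi-likelihood test on all 6 libraries, the adjusted p was 0.891 for NQO1 and 0.292 for NQO2.

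**Figure D1:**
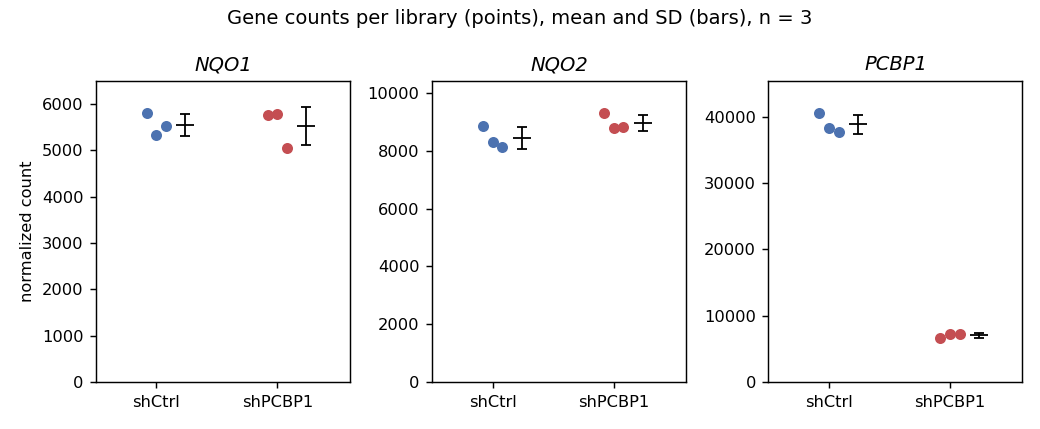
Normalized counts (y axis, from 0) of NQO1, NQO2 and PCBP1 in each shCtrl and shPCBP1 library (points), with the mean and SD of 3 libraries beside them. The groups overlap for NQO1 and NQO2, whereas the shPCBP1 libraries of PCBP1 stand at 6625 to 7277 against 37799 to 40566 in shCtrl.

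Per length, NQO2 was the more abundant of the pair in every library. NQO1 stood at 76.9, 72 and 74.6 TPM in shCtrl and at 73.1, 72.7 and 62.0 TPM in shPCBP1. NQO2 stood at 141, 136 and 135 TPM in shCtrl and at 142 TPM in each shPCBP1 library. The ratio of NQO2 to NQO1 was 1.84, 1.90 and 1.81 in shCtrl and 1.95, 1.95 and 2.30 in shPCBP1, so the groups did not overlap, and the highest ratio belonged to shPCBP1 replicate 3, the library with the lowest NQO1 level. The ratio was computed as a description and was not tested.

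The genes whose counts followed each reductase most closely were found as a description over the 6 libraries, from the root mean square difference of centred log2 normalized counts among 11623 protein-coding genes. For NQO1 they were NSRP1 (0.0205), KTN1 (0.0245) and TMEM79 (0.0257). For NQO2 they were ZFP64 (0.0135), NDUFB7 (0.0145) and RANBP9 (0.0162). None of these 6 genes passed the DESeq2 test, with adjusted p-values of 0.0958 to 0.916. That follows largely from the choice, since they were picked for likeness to reductases that did not pass.

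To ask whether the use of transcripts differed beneath these gene totals, the TPM of each annotated transcript was tested with limma on log2(TPM + 0.1), a scale that understates the change of low transcripts. Of all 101044 transcripts tested, 1.14% were called at an adjusted p of 0.05. All 16 transcripts of the pair were tested and 0 were called by limma. At an unadjusted limma p under 0.05 stood 1 of the 16, beside 14404 of all 101044 transcripts. edgeR on the estimated counts also called 0 of the pair, beside 0.89% of all transcripts. Where groups are said below to separate, the share of all transcripts that do so is not given, so separation is a description.

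NQO2 RNA was led by NQO2-205, which encodes the full 231-codon protein. It stood at 83.9, 81.2 and 74.4 TPM in shCtrl and 85.0, 82.2 and 83.6 TPM in shPCBP1, with overlapping groups (log2 fold change 0.07, SE 0.05, limma adjusted p = 0.62). The next was NQO2-204, the 193-codon form that lacks exon 5. It stood at 21.4, 25.2 and 20.8 TPM in shCtrl and 27.2, 27.0 and 28.4 TPM in shPCBP1, so every shPCBP1 library lay above every control. This was the transcript with an unadjusted p under 0.05, but it did not pass over all transcripts (log2 fold change 0.30, SE 0.08, limma adjusted p = 0.181).

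NQO2-201, which encodes the same 231 codons behind extra leader exons, stood at 11.3, 9.70 and 10.2 TPM in shCtrl and 9.34, 8.29 and 9.05 TPM in shPCBP1. Here each control lay above each shPCBP1 library, but the difference did not pass (log2 fold change -0.23, SE 0.10, limma adjusted p = 0.366). The remaining transcripts with at least 2% of NQO2 RNA were NQO2-209, NQO2-206 and NQO2-207. NQO2-209, annotated with only 35 codons, varied most, from 6.07 to 12.6 TPM in shCtrl and from 4.99 to 8.27 TPM in shPCBP1. NQO2-206 and NQO2-207, whose annotated 3′ ends are open, stayed between 4.71 and 6.70 TPM in all 6 libraries.

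NQO1 RNA was led not by the canonical transcript but by NQO1-206, in which a shorter first exon omits the canonical start codon and the reading frame opens in exon 2, giving 253 codons. NQO1-206 stood at 42.1, 36.9 and 37.8 TPM in shCtrl and 38.3, 35.2 and 28.8 TPM in shPCBP1 (log2 fold change -0.20, SE 0.11, limma adjusted p = 0.492). Second was NQO1-202, the 236-codon form without exon 4, at 22.3, 24.8 and 21.7 TPM in shCtrl and 18, 24.3 and 20.7 TPM in shPCBP1. Both sets overlapped between the groups. The level of NQO1-202 differed by -0.14 on the log2 scale (SE 0.12, limma adjusted p = 0.668).

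Canonical NQO1-201, with 274 codons and a long last exon, stood at 8.44, 8.57 and 8.10 TPM in shCtrl and 9.92, 9.73 and 8.74 TPM in shPCBP1. The shPCBP1 libraries were all above the controls, with a log2 fold change of 0.17 (SE 0.09, limma adjusted p = 0.445). NQO1-203, which lacks exon 5 and has 240 codons, was at 0.932 to 1.6 TPM in shCtrl and 1.07 to 2.61 TPM in shPCBP1. NQO1-204, which lacks both exons and has 202 codons, was estimated at 2.22, 0.37 and 5.10 TPM in shCtrl and 4.47, 1.95 and 0.288 TPM in shPCBP1. That spread within each group was larger than any difference between them.

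**Figure D2:**
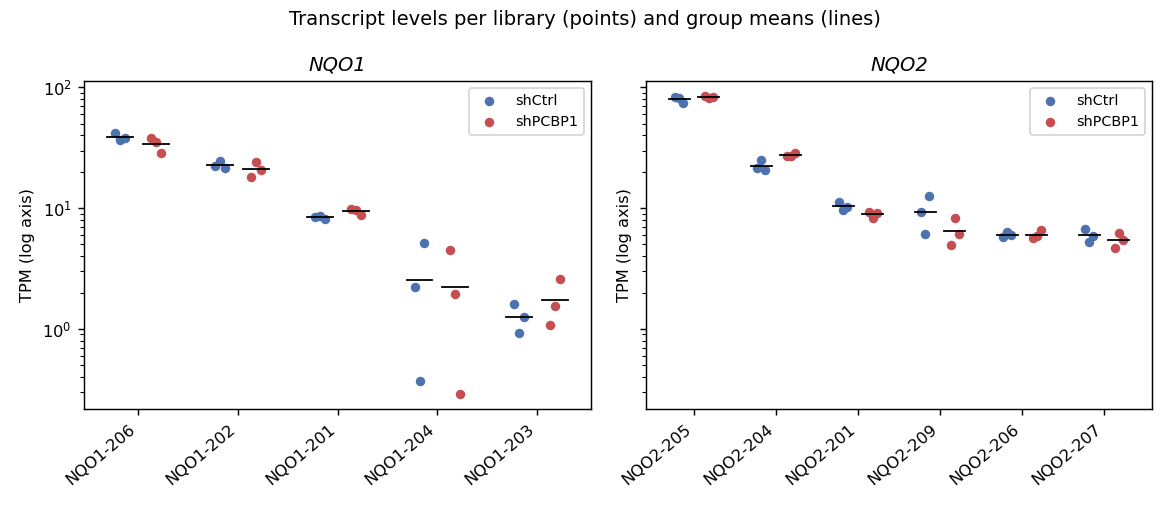
TPM on a log axis for the transcripts with at least 2% of NQO1 RNA (left) or NQO2 RNA (right), 1 point per library, shCtrl in blue and shPCBP1 in red, with lines at the group means. The points of the groups separate for NQO2-204, NQO2-201 and NQO1-201, and those of NQO1-204 spread from 0.288 to 5.10 TPM. The separation is a description, since the share of all transcripts that separate is not given here.

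Percent spliced in (PSI) was then taken as the share of TPM from transcripts with an exon among those with it and those that skip it. For NQO2 exon 5 (hg38 chr6:3015530-3015643), the exon that the study assayed by RT-PCR under another treatment, iron chelation, PSI was 82.3%, 79.6% and 80.2% in shCtrl and 77.8%, 77.6% and 77.9% in shPCBP1. All 3 shPCBP1 libraries were below all controls. The mean was 80.7% ± 1.41 against 77.8% ± 0.152 (SD, n = 3), a difference of -2.94 points (SE 0.819, two-sided exact permutation p = 0.1, the smallest that 3 against 3 allows). In limma over all cassette exons, the log2 ratio of inclusion to skipping differed by -0.26 (SE 0.15, adjusted p = 0.611).

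The forms with and without the exon were also compared separately. Together the 2 transcripts without the exon stood at 23.3, 26.5 and 24.3 TPM in shCtrl and 30.5, 29.8 and 30.1 TPM in shPCBP1, where the mean was 122% of the control mean (exact permutation p = 0.1). The 5 transcripts with the exon stood at 108, 104 and 98.1 TPM in shCtrl and 107, 103 and 106 TPM in shPCBP1, with overlapping groups (exact permutation p = 0.7). Among them, NQO2-206 and NQO2-207 are annotated only up to the last base of the exon. These transcripts count as inclusion here and in the PSI, though they show no splice downstream of the exon. Between 1079 and 1865 estimated counts per library lay behind the skipped forms.

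The exons of NQO1 were compared in the same way. PSI of NQO1 exon 4 (hg38 chr16:69714964-69715077) was 67.9%, 64.7% and 63.7% in shCtrl and 68.3%, 63.9% and 65.7% in shPCBP1, with overlapping groups and a difference of 0.548 points (SE 1.80, exact permutation p = 0.7). In shares of estimated counts, in place of TPM, this difference was 2.17 points (exact permutation p = 0.2). For NQO1 exon 5 (hg38 chr16:69713028-69713129), PSI was 95%, 98.2% and 91.4% in shCtrl and 92.3%, 95.2% and 95.3% in shPCBP1 (exact permutation p = 1). The direction of both NQO1 differences depended on which libraries were included. Whether the exon of NQO2 and that of NQO1 differed in their response was not tested.

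**Figure D3:**
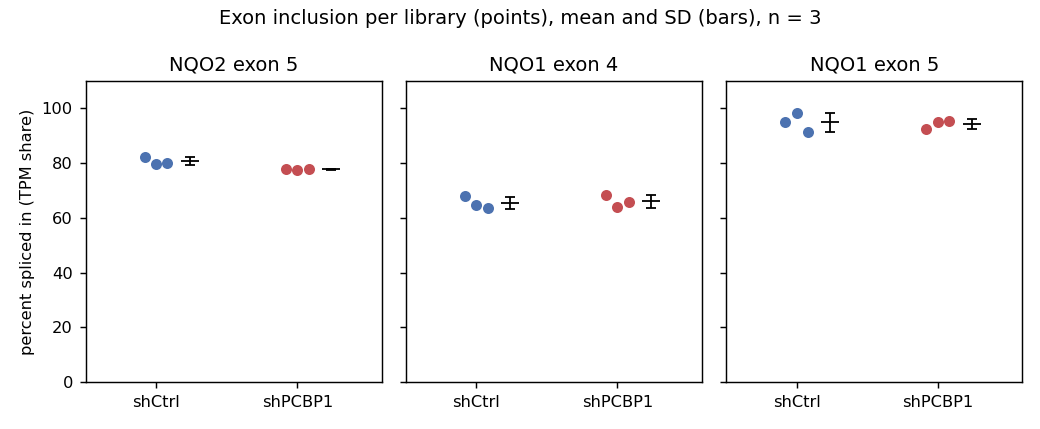
PSI in percent (y axis, from 0) for NQO2 exon 5, NQO1 exon 4 and NQO1 exon 5, 1 point per library, with the mean and SD of 3 libraries beside each group. Only for NQO2 exon 5 do the shCtrl points (79.6% to 82.3%) and the shPCBP1 points (77.6% to 77.9%) not overlap, among these 3 exons. Groups also separated for other NQO2 exons, outside the canonical transcript, which are not drawn.

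Over the whole of NQO1, the share of TPM in transcripts that skip an internal coding exon was 34.2%, 36.6% and 37.7% in shCtrl and 32.7%, 38.2% and 38.0% in shPCBP1. The shPCBP1 libraries spanned the control range, and the difference was 0.182 points (SE 2.08, exact permutation p = 0.8). Counted from estimated counts in place of TPM, it was -0.43 points.

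In the limma fit over 56679 cassette exons, 0.0512% were called at an adjusted p of 0.05 and a PSI difference over 5 points. The study, using another method on aligned reads, reported many changed skipped exons after PCBP1 knockdown. The measures are unlike, so this share does not give the extent of splicing change. The pair held 8 of the exons tested (6 in NQO2 and 2 in NQO1), of which limma called 0. At an unadjusted p under 0.05 stood 0 of these 8, beside 5819 of all 56679 exons. Of the 5 NQO2 exons outside the canonical transcript, the one with the lowest limma p (237 bases, used by NQO2-201) had a mean PSI of 8.13% in shCtrl and 6.55% in shPCBP1 (adjusted p = 0.524). Its groups did not overlap, nor did those of a 121-base exon (11.4% to 13.7% in shCtrl and 10.2% to 10.9% in shPCBP1). Both had a lower unadjusted limma p (0.0761 and 0.11) than NQO2 exon 5 (0.142). The share of all cassette exons whose groups separate is not given here. On simulated data, changed exons were drawn from those with a total TPM of about 20 or more. This fit found 0 of 200 with a log2 ratio changed by 2 and 105 of 200 changed by 3. A change of the size seen in NQO2 exon 5 was thus below what this fit could detect.

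**Figure D4:**
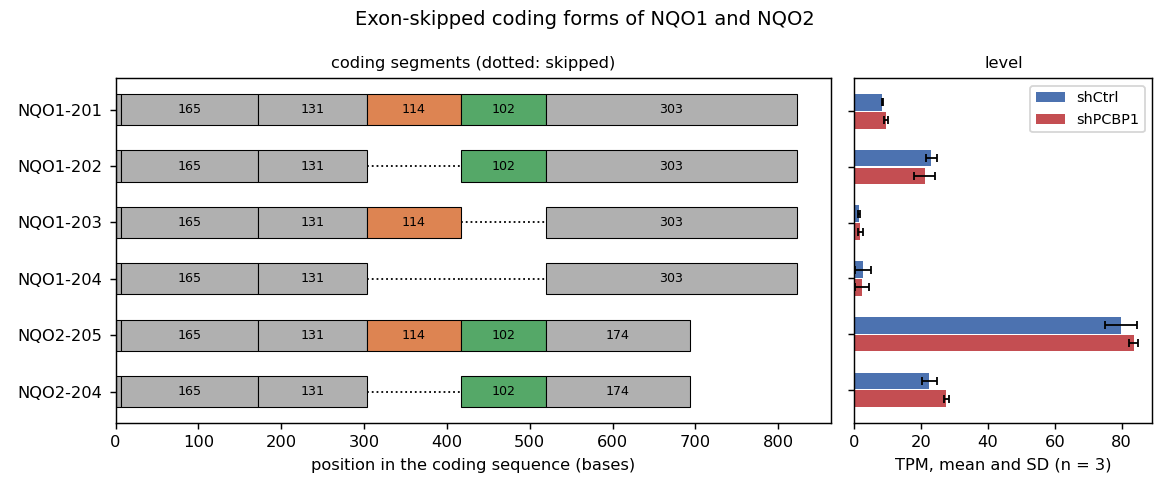
Left, coding segments of canonical and exon-skipped NQO1 and NQO2 transcripts, to scale in bases from the canonical start codon, with the 114-base segment in orange, the 102-base segment in green and skipped segments dotted. Right, mean TPM and SD of 3 libraries per group (x axis, from 0), where NQO2-204 averages 22.5 TPM in shCtrl and 27.5 TPM in shPCBP1.

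The ends of the transcripts were compared next, and 12 shares were tested in all, none of which can pass 0.05 with these group sizes. NQO2 transcripts that start outside the first exon of NQO2-205 made up 11.4%, 10.0% and 15.1% of NQO2 TPM in shCtrl and 9.11%, 10.7% and 9.92% in shPCBP1. The groups overlapped, with a difference of -2.27 points (exact permutation p = 0.2) in TPM and of -0.57 points in estimated counts. Without shCtrl replicate 3, where this share was highest, the TPM difference was -0.79 points. The far upstream first exons of NQO2-206 and NQO2-208 made up 4.20% to 4.72% of TPM in all 6 libraries (exact permutation p = 0.9). Extra leader exons, in NQO2-201, NQO2-203 and NQO2-207, made up 14.1%, 11.9% and 14.5% in shCtrl and 12.1%, 12.2% and 11.4% in shPCBP1 (exact permutation p = 0.3).

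For NQO1, the short first exon of NQO1-206 accounted for 54.8%, 51.3% and 50.6% of TPM in shCtrl and 52.4%, 48.4% and 46.4% in shPCBP1 (exact permutation p = 0.3). The long last exon shared by NQO1-201 and NQO1-203 accounted for 13.1%, 13.2% and 12.5% in shCtrl and 15.0%, 15.5% and 18.3% in shPCBP1. All shPCBP1 libraries lay above all controls for that last exon, by 3.35 points on average (SE 1.05). The exact permutation p was 0.1, the smallest that 3 against 3 allows. Among the 12 shares, the groups separated otherwise only for NQO2 exon 5 inclusion. How often such shares separate over all genes is not given here, so this separation is a description. That exon reaches chr16:69709401, past the ends of NQO1-202, NQO1-204 and NQO1-206 at 69710727, 69710782 and 69710962. Reads past those ends set the long form apart from these transcripts. The share still rests in part on how Salmon divided the reads that they have in common.

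Annotated neighbours overlap both genes, and no source used here says that the counting used strand. LINC01011 (hg38 chr6:2987967-2991173), a noncoding gene on the strand of NQO2 that overlaps its upstream exons, held 1929, 2206 and 1928 normalized counts in the controls against 1508, 1623 and 1708 after knockdown. It was lower in every shPCBP1 library (log2 fold change -0.33, SE 0.08, DESeq2 adjusted p = 0.000631), and reads shared with NQO2-206 and NQO2-208 cannot be told apart with certainty. NQO2-AS1, on the opposite strand, averaged 98.7 normalized counts and did not pass (DESeq2 adjusted p = 0.591). For NQO1 the overlapping neighbour was ENSG00000261602 (hg38 chr16:69709874-69710583), a noncoding gene on the opposite strand without a normalized count here. It lies within the stretch of the long last exon past the ends of the shorter forms. Reads from it cannot be told apart there with certainty. NQO1-DT, which starts beside NQO1 on the other strand, averaged 29.7 normalized counts, with no adjusted p in DESeq2.

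The enzymes and regulators around the pair were grouped in 5 lists of 122 genes, of which 103 had an adjusted p in the DESeq2 fit. Of these 103 genes, 41 passed (20 higher and 21 lower in shPCBP1), beside 31.2% of all genes with an adjusted p. The lists were not matched to all genes by count level, so a share above 31.2% is not read as an excess. The median log2 fold change of all genes was 0.00187. In each list up to 2 rises and 2 falls are named.

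Among other quinone and carbonyl reductases, 5 of 26 genes were higher and 7 lower (46.2% passing), with a median log2 fold change of 0.00383. With transcript length offsets only 6 passed. AKR1A1, an aldehyde reductase, rose from 4506 ± 199 to 6666 ± 167 normalized counts (log2 fold change 0.57, SE 0.05, DESeq2 adjusted p = 2.86e-26). CYB5R4, a cytochrome b5 reductase, rose by 0.26 on the log2 scale (DESeq2 adjusted p = 0.000211), or by 0.43 with transcript length offsets. DCXR, which reduces dicarbonyls and xylulose, fell from 8375 ± 405 to 5872 ± 71.9 normalized counts (log2 fold change -0.51, SE 0.05, DESeq2 adjusted p = 3.75e-24), and by 1.23 on the log2 scale when protein-coding transcripts alone were summed. VAT1, a member of the quinone oxidoreductase family, fell by 0.38 on the log2 scale (DESeq2 adjusted p = 6.58e-19).

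In the NRF2 system, whose targets classically include NQO1, 5 of 27 genes were higher and 5 lower (37.0% passing), with a median of -0.00864. The subunits of glutamate-cysteine ligase, which makes the glutathione precursor, both rose. GCLC went from 1845 ± 36.3 to 2268 ± 86.7 normalized counts (log2 fold change 0.30, DESeq2 adjusted p = 0.000125). GCLM went from 7620 ± 531 to 8957 ± 238 (log2 fold change 0.23, DESeq2 adjusted p = 9.02e-05), and by 0.38 with transcript length offsets. BLVRB, the flavin and biliverdin reductase, fell from 24740 ± 950 to 18035 ± 292 normalized counts (log2 fold change -0.46, DESeq2 adjusted p = 1.52e-30). OSGIN1, an oxidative stress gene, differed by -0.59 on the log2 scale (DESeq2 adjusted p = 0.00413), a call lost when replicate 2 or 3 of shCtrl or replicate 1 of shPCBP1 was left out, with adjusted p-values of 0.0631 to 0.0716. HMOX1, GPX2 and ABCC2 received no adjusted p.

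In the aryl hydrocarbon receptor system, 2 of 7 genes passed, both of them higher (28.6% passing), with a median of 0.0459, and 7 of the 14 listed genes, AHR itself among them, received no adjusted p. TIPARP, a receptor target that ADP-ribosylates proteins, rose from 3179 ± 178 to 3812 ± 50.2 normalized counts (log2 fold change 0.26, DESeq2 adjusted p = 0.000104). Without replicate 1 or replicate 2 of shPCBP1, 1 gene of the list passed.

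Cofactor genes supply the FAD that both enzymes bind and the nicotinamide nucleotides and ribosides that feed them. Of 17 such genes, 3 were higher and 2 lower (29.4% passing), with a median of -0.0206, and 3 passed when protein-coding transcripts alone were summed. NAPRT and QPRT, which feed nicotinic acid and quinolinic acid into NAD synthesis, both fell. NAPRT went from 4322 ± 251 to 2504 ± 194 normalized counts (log2 fold change -0.79, DESeq2 adjusted p = 4.74e-28), and QPRT from 10019 ± 497 to 6899 ± 122 (log2 fold change -0.54, DESeq2 adjusted p = 1.27e-27). SLC29A1, a nucleoside transporter, rose by 0.24 on the log2 scale (DESeq2 adjusted p = 7.07e-05). NAMPT, which salvages nicotinamide, had a log2 fold change of 0.14 (DESeq2 adjusted p = 0.000554), 0.25 with transcript length offsets, and -0.05 (adjusted p = 0.669) when protein-coding transcripts alone were summed.

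Of 26 genes of phase II conjugation and quinone handling, 5 were higher and 7 lower (46.2% passing), with a median of -0.0586. SULT1A1, a phenol sulfotransferase, fell from 573.0 ± 40.3 to 272.1 ± 5.45 normalized counts (log2 fold change -1.08, SE 0.14, DESeq2 adjusted p = 2.25e-12) and was the only gene of the 5 lists that passed the test with an absolute log2 fold change over 1. Its reads can be shared with near-identical SULT1A paralogs, as those of GSTM2 can within the GSTM cluster. GSTM2, a glutathione transferase, had a log2 fold change of -0.36 (DESeq2 adjusted p = 0.0198), which was -0.85 when protein-coding transcripts alone were summed and -0.55 with transcript length offsets. It was not called without replicate 2 or 3 of shCtrl or replicate 1 of shPCBP1 (adjusted p up to 0.106). GGCX, the vitamin K-dependent carboxylase, had a log2 fold change of 0.28 (DESeq2 adjusted p = 7.42e-05), and of 0.15 (adjusted p = 0.201) with transcript length offsets.

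**Figure D5:**
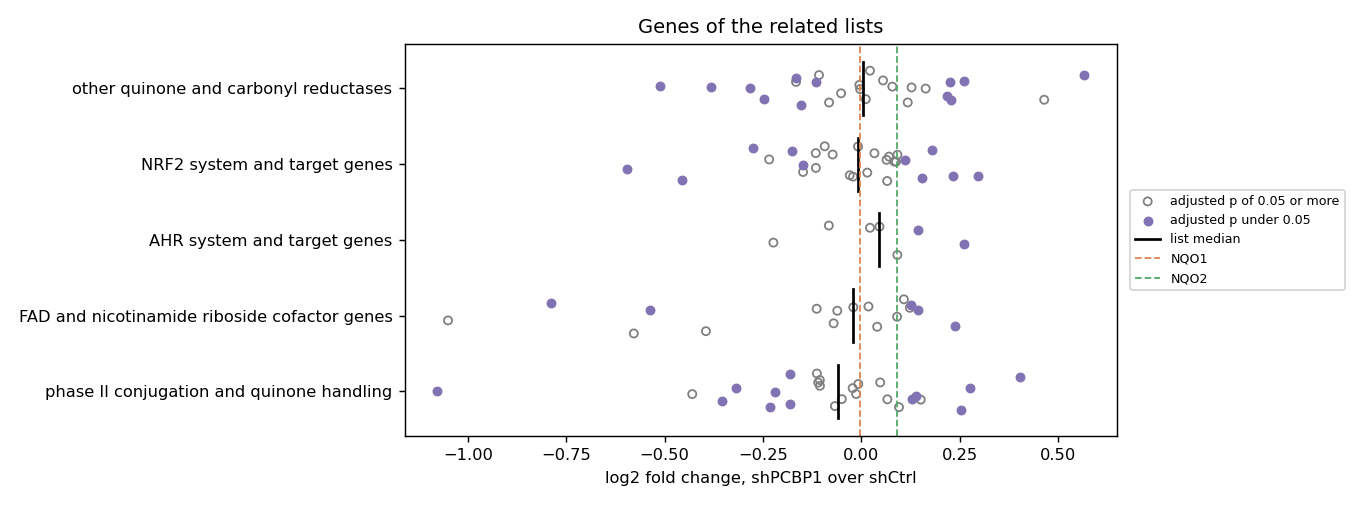
Log2 fold change of shPCBP1 over shCtrl (x axis) for the genes of the 5 lists with an adjusted p, 1 point per gene with vertical scatter for clarity, filled where the DESeq2 adjusted p is under 0.05, and list medians as black lines. Dashed lines mark NQO1 (-0.0039) and NQO2 (0.09), and the medians lie between -0.0586 and 0.0459.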

How the data were processed

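RNA of K562 cells was sequenced after poly-A selection in 3 shCtrl and 3 shPCBP1 libraries, grouped by the labels. The authors quantified transcripts with Salmon 1.10.2, and the deposited estimated counts are not normalized. The deposited TPM values correct, per the authors' Salmon run, for transcript length and depth. The annotation release of the index was not given in the sources used here. Of 252045 transcripts, 251612 were matched to GENCODE release 44, 470 of them under another version number, and the others held 0.136% to 0.147% of a library's counts.

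For each gene the estimated counts of its transcripts were added and rounded, and genes reaching 10 counts over all libraries were tested with DESeq2 1.42.0 (Wald test, two-sided, Benjamini-Hochberg). The study also used a DESeq2 Wald test, but its own calls added thresholds on read count and fold change. edgeR 4.0.16 was an alternative. Transcripts with a mean TPM of at least 0.1 were tested with limma 3.58.1 on log2(TPM + 0.1), and cassette exons with a mean count of at least 10 in either form on the log2 ratio of inclusion to skipping TPM (pseudocount 0.1). Adjusted p-values cover all features of each fit. Shares were compared with exact permutation tests. Junction reads were not used here, so splicing rests on Salmon's division of reads.

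On simulated data, DESeq2 found 148 of 200 genes changed by 0.5 on the log2 scale (27313 genes, 35 false calls), and limma found 41 of 200 transcripts changed by 1 (101044 transcripts).

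Named were the pair, PCBP1, overlapping genes, up to 2 rises and 2 falls in each list (mean normalized count 100 or more), the 3 most alike genes, and transcripts with at least 2% of a gene's TPM. Some genes that the rule selects are not reported here. NQO1-DT, which does not overlap NQO1, was added after its values were seen. Members and lists were chosen with earlier results of these data known. Alternatives covered scaling, filters, pseudocounts, units, transcript sets, a replicate block and leaving out each library. Analyses ran in R 4.3.3 and Python 3.11.15.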

Additional observations from a re-analysis of the deposited data

How the results depend on the processing

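Leaving out each library in turn moved the log2 fold change of NQO1 between -0.0367 and 0.0556, with a change of sign, and that of NQO2 between 0.0628 and 0.127, where only the fit without shCtrl replicate 1 passed. Over the other settings NQO1 ranged from -0.08 (transcript length offsets) to -0.0039 and NQO2 from 0.06 to 0.09. The difference in PSI of NQO2 exon 5 stayed between -3.47 and -2.14 points with a library left out and between -3.02 and -2.51 points otherwise, while its limma adjusted p ranged from 0.178 to 0.78 over all alternatives. The NQO1 exon-skipped share was -0.43 points in estimated counts and -0.79 to 1.99 points with a library left out. Genes passing in the lists numbered 33 to 44 with a library left out and 34 to 44 otherwise, against 41. No setting called a transcript of the pair.

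Other signs that turned belong to values that passed no test or, for NAMPT (-0.0488), lost it when protein-coding transcripts alone were summed. NQO2-206 had a log2 fold change of 0.0167 by edgeR and -0.0643 to 0.0417 with a library left out, and NQO1-204 one of -1.18 to 0.78. With a library left out, NQO1 exon 4 PSI differed by -0.63 to 1.78 points (log2 ratio -0.0415 to 0.114), and NQO1 exon 5 PSI by -2.35 to 1.05 points (log2 ratio -0.90 to 0.23). The causes were not tested.

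Libraries with the same replicate number did not deviate together (correlations 0.0687, -0.00184 and -0.0711), so the numbers pair nothing known. With the replicate number as a block, the log2 fold change was -0.0061 for NQO1 and 0.09 for NQO2 (DESeq2 adjusted p = 0.964 and 0.162), 37 list genes passed, with GSTM2 among those lost, 0 transcripts of the pair were called by limma, and NQO2 exon 5 had a limma adjusted p of 0.699. Small changes could be missed: limma found 5 of 200 simulated transcripts changed by 0.5 on the log2 scale and 0 of 200 simulated exons whose log2 ratio changed by 1. These changed transcripts had a mean TPM of at least 1, and the changed exons a total TPM of about 20 or more.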
